A study of Mus musculus with 7 samples.

Results

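The transiently absent regions described here are stretches of chromatin that carried an ATAC-seq peak in untreated mouse pancreatic epithelium, carried none at day 1 or day 7 after caerulein, and carried a peak again at day 28. ATAC-seq marks open DNA through the insertions of the Tn5 transposase, and caerulein is a cholecystokinin analogue that overstimulates acinar cells and provokes a transient pancreatitis. Overlapping peaks of the 4 lists on chromosomes 1 to 19 and X were merged into 223972 regions, and 11629 of these (5.19%) had the required pattern. They made up 13.9% of the 83909 regions that the untreated and day 28 lists shared (exact binomial 95% interval 13.6 to 14.1, which covers counting error only). These regions were chosen by the presence of peaks, so their fold enrichments and that share are descriptions, and no peak means only that none was called.

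All 4 libraries came from epithelial cells purified from dissociated pancreata of C57BL/6J wild-type mice, which were either untreated or taken 1, 7 or 28 days after caerulein. Each group was 1 library, the number of mice behind a library was not given in the sources used here, and no difference below has a replicate check or a p-value. A further 3 libraries, of DCLK1-positive cells from Dclk1-DTR-ZsGreen mice, are not analysed here. The study's title speaks of an epithelial memory of resolved inflammation. The regions described here had a peak called in the untreated list, none at days 1 and 7, and 1 again at day 28. Memory was not tested with them.

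Acinar cells fill the exocrine pancreas and make its digestive enzymes as zymogens. Their enzyme genes are driven by a set of transcription factors that includes PTF1A with its partner RBPJL, NR5A2, GATA4 and MIST1 (Bhlha15). In injury acinar cells are known to turn down this programme and take on duct-like features, a reversible change called acinar-to-ductal metaplasia.

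The share of transiently absent regions was highest at acinar genes. Of the 227 regions that the untreated and day 28 lists shared at the genes of digestive enzymes and zymogen granule proteins, 124 (54.6%, exact 95% interval 47.9 to 61.2) had no peak at days 1 and 7, against the 13.9% of all shared regions. The share was 30.3% at acinar transcription factor genes (93 of 307, 25.2 to 35.8), 30.2% at genes of the unfolded protein response and endoplasmic reticulum folding (70 of 232, 24.3 to 36.5) and 27.2% at genes of acinar amino acid metabolism (41 of 151, 20.2 to 35.0). It was 20.5% at secretagogue receptor and exocytosis genes (45 of 220, 15.3 to 26.4). At translocation and export genes it was 19.8% (24 of 121, 13.1 to 28.1), an interval that holds the 13.9% of all shared regions. Among regions with a fold of at least 5 in both lists, translocation and export genes had 3, a share of 3.797% that lay under the 6.79% of all shared regions. Regions missing at day 1 alone made up 26.4% of the shared regions at enzyme and granule protein genes and 25.4% at acinar transcription factor genes. They made up 22.7% at ductal genes and 7.44% at translocation and export genes, against 12.7% of all shared regions. A region was linked to the protein-coding gene closest to its untreated summit, up to 50 kb away. The intervals treat regions of a gene as independent, which they are not, so they are likely too narrow. The gene lists were written with earlier results of these data known, so the ranking of the lists is a description.

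Other gene lists lay near or under the share of all regions, apart from leukocyte markers, which lay above it on only 22 regions. Ductal genes had 20 transiently absent regions among 141 (14.2%), EGFR and MAPK genes 25 among 204 (12.3%), inflammatory and NF-kB genes 12 among 150 (8%), immediate-early and AP-1 genes 12 among 173 (6.94%), ubiquitous genes 4 among 56 (7.14%) and cell cycle genes 3 among 63 (4.76%). Of the markers of other cells, those of fibroblasts and stellate cells had 0 among 85 (exact 95% interval 0 to 4.25%). Islet cell markers had 0 among 50 (0 to 7.11%). Endothelial markers had 9 among 81 (11.1%), leukocyte markers 4 among 22 (18.2%, 5.19 to 40.3) and tuft cell markers 11 among 69 (15.9%).

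**Figure D1:**
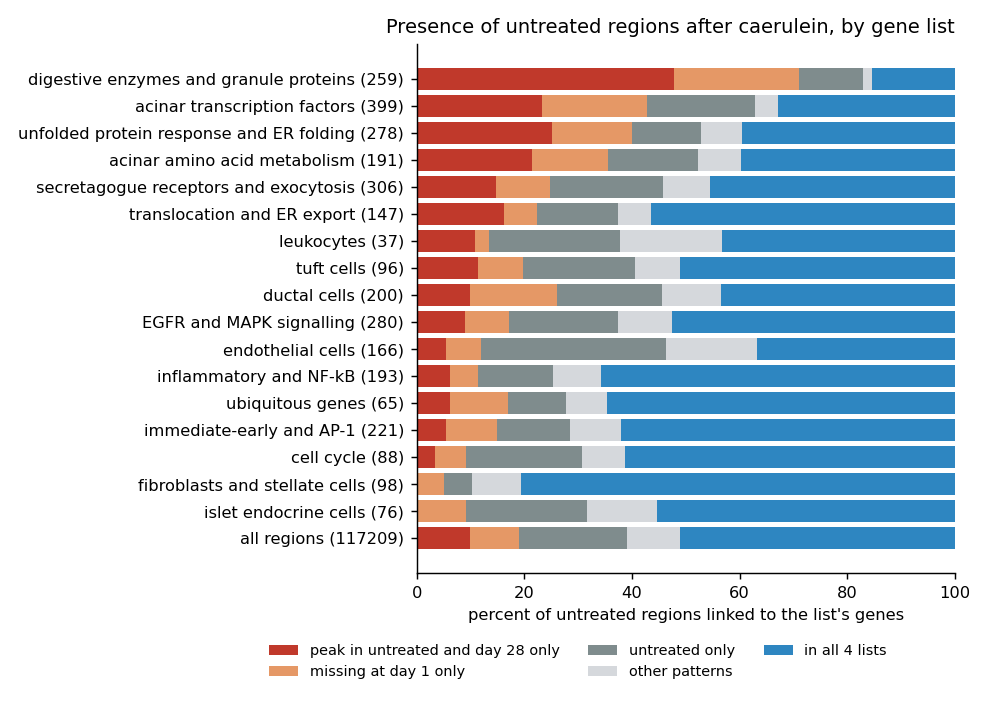
Each bar splits the untreated regions linked to the genes of a list (their number in brackets) by the lists in which they recurred, in percent. The red part, regions with a peak in the untreated and day 28 lists only, is widest for digestive enzyme and granule protein genes (47.9% of 259) and absent for fibroblast and islet genes, against 9.92% of all 117209 untreated regions.

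Counts of all peaks linked to a list include the chosen regions, so their course is in part fixed by the choice. The untreated, day 1, day 7 and day 28 lists held 140286, 164684, 145337 and 130149 peaks in all. The number of peaks linked to digestive enzyme and granule protein genes was 324, 65, 186 and 342 in the same order. For acinar transcription factor genes it was 456, 303, 369 and 480. Ductal genes had 239, 273, 271 and 226 peaks, and inflammatory and NF-kB genes 268, 417, 372 and 261. Fibroblast and stellate markers had 145, 277, 225 and 168 peaks, leukocyte markers 37, 52, 41 and 29, and endothelial markers 199, 175, 187 and 135. Fibroblast, leukocyte, ductal and inflammatory genes thus had their most peaks at day 1, when enzyme genes had their fewest. The ductal counts at days 1 and 7 differed little. The day 1 list was also the largest as a whole. Secretagogue receptor and exocytosis genes (360, 383, 326 and 333) and translocation and export genes (167, 193, 158 and 188) had their most peaks at day 1 too. So did immediate-early and AP-1 genes (298, 388, 372 and 309) and EGFR and MAPK genes (334, 366, 313 and 308). Tuft cell (111, 151, 133 and 109), islet (97, 113, 99 and 99) and cell cycle genes (103, 113, 100 and 95) did as well. Unfolded protein response, amino acid metabolism, endothelial and ubiquitous genes did not. The part of other cells in the result was not tested. In such bulk libraries a smaller share of acinar cells and less open chromatin per acinar cell cannot be told apart.

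Promoters of this set were few but belonged in part to acinar genes, and 4 of them are shown because a transiently absent region overlapped their promoter window. RefSeq promoter windows, from 250 bases before to 50 after a start site, were at hand for all chromosomes used except 18. The 250 bases upstream of the start are printed 5' to 3' on the gene's strand, from RefSeq on GRCm38.p6, with matches to the RBPJ core TGGGAA or to the GATA motif AGATAA, on either strand, in capitals.
Gp2: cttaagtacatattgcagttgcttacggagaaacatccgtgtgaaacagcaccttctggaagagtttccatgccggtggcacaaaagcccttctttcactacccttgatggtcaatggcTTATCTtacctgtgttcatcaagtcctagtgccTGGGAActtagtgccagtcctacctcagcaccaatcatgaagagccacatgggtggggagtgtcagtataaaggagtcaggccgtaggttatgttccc
Pnlip: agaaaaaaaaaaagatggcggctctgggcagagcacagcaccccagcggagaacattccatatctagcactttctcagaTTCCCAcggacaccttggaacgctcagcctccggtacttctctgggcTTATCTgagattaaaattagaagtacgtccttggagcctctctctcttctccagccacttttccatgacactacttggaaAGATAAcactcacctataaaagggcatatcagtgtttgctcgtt
Hamp2: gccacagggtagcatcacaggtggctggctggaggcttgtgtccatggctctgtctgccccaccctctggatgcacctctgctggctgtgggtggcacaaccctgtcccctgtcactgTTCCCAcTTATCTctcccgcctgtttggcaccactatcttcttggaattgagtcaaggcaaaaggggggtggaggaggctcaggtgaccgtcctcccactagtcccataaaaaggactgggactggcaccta
Amy1: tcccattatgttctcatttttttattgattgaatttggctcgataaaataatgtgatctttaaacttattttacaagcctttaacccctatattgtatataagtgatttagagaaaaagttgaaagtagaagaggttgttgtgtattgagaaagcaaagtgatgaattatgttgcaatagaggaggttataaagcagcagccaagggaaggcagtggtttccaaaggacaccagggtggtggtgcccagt

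The Gp2 sequence lies at chr7:119459273-119459522 on the minus strand. GP2 is the main membrane glycoprotein of zymogen granules. Its promoter region spanned chr7:119458713-119460437, with a fold enrichment over the library's background of 29.3 in the untreated list and 32.1 at day 28. The nearest day 1 peak was 30019 bp away and the nearest day 7 peak 1592 bp away. The sequence holds 1 RBPJ core, 1 GATA motif and 2 E-boxes (CANNTG, the motif of basic helix-loop-helix factors such as PTF1A).

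The Pnlip sequence lies at chr19:58670115-58670364 on the plus strand and holds 1 RBPJ core, 2 GATA motifs and no E-box. Pnlip encodes pancreatic triglyceride lipase. The region over it had a fold of 12.0 in the untreated list and 16.5 at day 28, with the nearest day 1 peak 3447 bp and the nearest day 7 peak 2342 bp away. Hamp2, a hepcidin gene, has its sequence at chr7:30924182-30924431 on the minus strand. It holds 1 RBPJ core, 1 GATA motif, 2 E-boxes and 1 AP-1 motif (TGANTCA). Its region had folds of 11.0 and 11.9, and no day 1 peak lay nearer than 29251 bp. The salivary-type amylase gene Amy1, at chr3:113574763-113575012 on the minus strand, holds neither motif and no E-box. This start site lies within the annotated gene span, and the region, at chromosome 3, 113574609 to 113574883, reached only part of the printed bases. It had folds of 6.26 and 9.08. A day 7 peak lay 110 bp from it, and the nearest day 1 peak 54637 bp away. Amylase genes are near-identical copies, and how reads that match several copies were handled was not given in the sources used here.

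Motif content over all such promoters was a description of few sequences. Transiently absent regions overlapped 94 promoter windows, of which 22.3% held the GATA motif (21, exact 95% interval 14.4 to 32.1) and 73.4% an E-box (63.3 to 82.0) in the upstream 250 bases. Of all 21045 promoter windows of the same length, 8.84% held the GATA motif and 62.8% an E-box, and of the 12925 windows under regions present in all 4 lists 5.14% and 56.1%. Their median GC content was 51% against 55.6% of all windows and 60.8% of those under constant regions, so base composition differed as well. The RBPJ core stood in 23.4% of the 94 and 21.1% of all windows, and the AP-1 motif TGANTCA in 7.45% and 6.17%. The NR5A motif AAGGTCA stood in 3 of the 94 (3.19%) and in 3.63% of all windows, the HNF1 motif GTTAAT in 8.51% and 5.85%, and the forkhead motif TGTTTAC in 6.38% and 2.64%. In the 246 windows under regions missing at day 1 alone, the GATA motif stood in 13.8% and an E-box in 84.1%.

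Start sites were rare in the set as a whole. Only 90 of 11234 transiently absent regions on the chromosomes with promoter windows overlapped a window (0.801%, 0.645 to 0.984), against 17.99% of the regions present in all 4 lists, 2.25% of those missing at day 1 alone and 0.889% of those found in the untreated list only. Within 1 kb of an annotated end of a protein-coding gene lay 5.37% of the set (625 regions, 4.97 to 5.80), 6.39% of the regions missing at day 1 alone, 7.07% of the untreated-only regions and 21.7% of the constant regions. The untreated summit lay inside a gene span in 63.0% of the set, 59.6% of the regions missing at day 1 alone, 60.6% of the untreated-only and 57.7% of the constant regions. No protein-coding gene lay within 50 kb for 10.6%, 11.2%, 11.8% and 9.81%, so the 4 patterns were close in both measures. Exons and introns were not separated here.

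**Figure D2:**
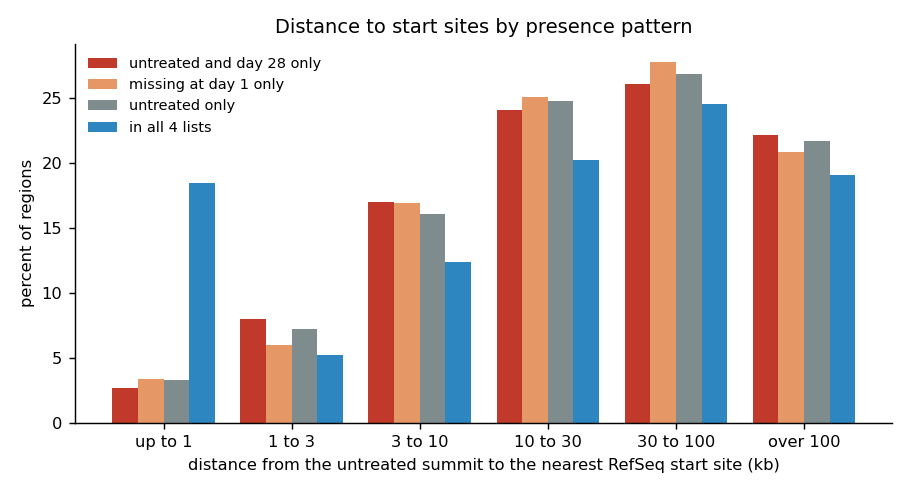
Bars give the percent of regions of each presence pattern by the distance (kb) from the untreated summit to the nearest RefSeq start site of a protein-coding gene. Within 1 kb of a start site lay 2.65% of the transiently absent regions (red) and 18.5% of those in all 4 lists (blue). The other patterns were close to the red one, with 3.38% of regions missing at day 1 alone and 3.30% of untreated-only regions. Between 10 and 30 kb lay 24.1% of the transiently absent regions, 25.1% of those missing at day 1 alone and 24.8% of the untreated-only ones.

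The transiently absent regions were weak to moderate peaks. Their median fold enrichment was 4.61 in the untreated list (central range from the lower to the upper quartile 3.79 to 5.93) and 5.39 at day 28 (4.26 to 7.10), and their median widths were 280 and 273 bp. Regions in all 4 lists had medians of 8.40 and 12.5, regions missing at day 1 alone 6.76 and 8.52, and untreated-only regions 3.62. In 3707 of the set the fold was at least 5 in both lists, in 441 at least 10 and in 28 at least 20. The untreated and day 28 summits lay a median of 46 bp apart, and 77.4% were within 100 bp. Across the 11629 regions the folds of the untreated and day 28 libraries had a Spearman rho of 0.557, and across the constant regions 0.918, both only as a description since regions share library and depth. The set spanned a narrower range of untreated folds (quartiles 3.79 to 5.93) than the constant regions (5.11 to 20.6). The rho values are therefore not directly comparable.

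**Figure D3:**
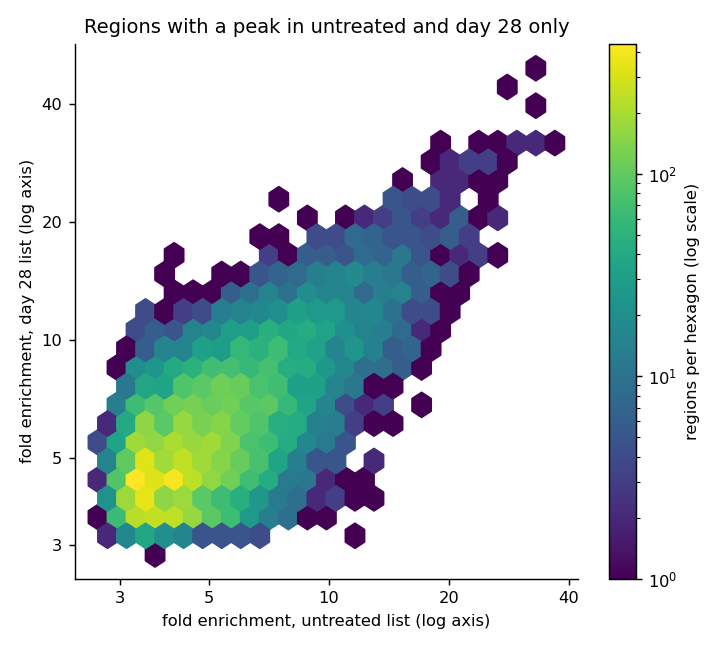
Each hexagon counts transiently absent regions by their fold enrichment in the untreated list (horizontal, log axis) and in the day 28 list (vertical, log axis). Most lie under a fold of 10 in either list, around the medians of 4.61 and 5.39, and 28 regions reach 20 in both.

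At the threshold of the pattern, 336 regions had a fold under 3 in the weaker of the untreated and day 28 lists, and the lowest folds inside were 2.64 and 2.84. Just outside lay 1697 regions kept out by a day 1 peak alone, 164 of them with a day 1 fold under 3 (lowest 2.52). A day 7 peak alone kept out 10681, of which 385 had a day 7 fold under 3.5 (lowest 2.95). Regions kept out by a day 7 peak were thus the far larger group, and their median day 7 fold was 5.37.

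The libraries differed in depth and enrichment. Background pileups recovered from the steps of the fold values for the untreated, day 1, day 7 and day 28 libraries were 5.07, 5.35, 2.72 and 2.52, and the lowest folds called were 2.47, 2.36, 2.95 and 2.84. After scaling on the median enrichment of constant regions, the weakest untreated fold of the set corresponded to a fold of 4.68 at day 1 and 4.34 at day 7, and the weakest day 28 fold to 3.66 and 3.42. This scaling rests on constant regions that are stronger and nearer to start sites than the set itself, and the part of sensitivity in the missing calls was not tested. Nearest peaks were not always distant: 1956 of the regions had a day 1 peak within 500 bp and 2793 a day 7 peak, while 2194 had no day 1 peak within 10 kb.

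The strongest single regions were spread over genes of many functions. Ranked by the weaker of their 2 folds, the first lay 6076 bp from Sh3tc2, at chromosome 18, 62021292 to 62022104, with folds of 34.1 in the untreated list and 38.6 at day 28. A region inside Tbccd1 at chromosome 16, 22842414 to 22843310, had folds of 31.3 and 49.4, and the nearest day 1 peak was 852 bp away. It was followed by regions near Wsb1 (31.5 and 30.7) and inside Slc16a7, a monocarboxylate transporter gene (36.9 and 29.8), the latter with no day 1 or day 7 peak within 12116 bp. Then came the Gp2 promoter region and regions inside Cytip (29.2 and 31.5), near Il12rb1 (29.2 and 28.95), inside Stard3 (28.8 and 43.4), near Ptgds (27.2 and 30.4) and 29888 bp from the angiogenic growth factor gene Vegfa (26.4 and 28.95). Some had a day 1 or day 7 peak nearby, as close as 220 bp at Wsb1 (day 7).

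Near gene ends the strongest regions included several acinar genes. After Gp2 and Il12rb1 came the pancreatic amylase gene Amy2b, at chromosome 3, 113146718 to 113148909, with folds of 23.1 and 18.4 and no day 1 peak within 480611 bp. Gsap (14.0 and 14.5), Cacna1s (13.5 and 12.5), Pnlip, Dcaf6 (12.7 and 11.4), Hamp2 and Eif2ak1 (10.9 and 14.2) were also among the strongest. Of the digestive enzyme and granule protein genes 14 had such a region within 1 kb of a gene end, 20 regions in all, among them Pnlip with 4, Gp2 with 3 and the trypsinogen gene Try5 with 2.

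Among enzyme genes Gp2 had the highest share of those with at least 8 shared regions. At Gp2, 12 of the 13 regions shared by the untreated and day 28 lists were transiently absent and 0 were present throughout. The median folds of these 12 were 4.94 and 4.83. Peaks linked to the gene numbered 21 in the untreated list, 0 at day 1, 2 at day 7 and 25 at day 28. Pnliprp1, which encodes a pancreatic lipase-related protein, had 11 of 15 (peaks 23, 2, 5 and 23). The amylase genes Amy1 and Amy2b had 9 of 11 and 6 of 7, with 12, 0, 2 and 13 peaks at the former and 15, 0, 1 and 11 at the latter. Cpb1, a carboxypeptidase B gene, had 7 of 10 and Pnlip 12 of 23. Other enzyme genes had few or none: Ctrb1, Cela1 and Pnliprp2 had 1 of 4 each and Cela3a 0 of 6. Regions present in all 4 lists numbered 3 each at Ctrb1 and Cela3a. Regions of the set were linked to 25 of the 30 enzyme and granule genes with an annotation.

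**Figure D4:**
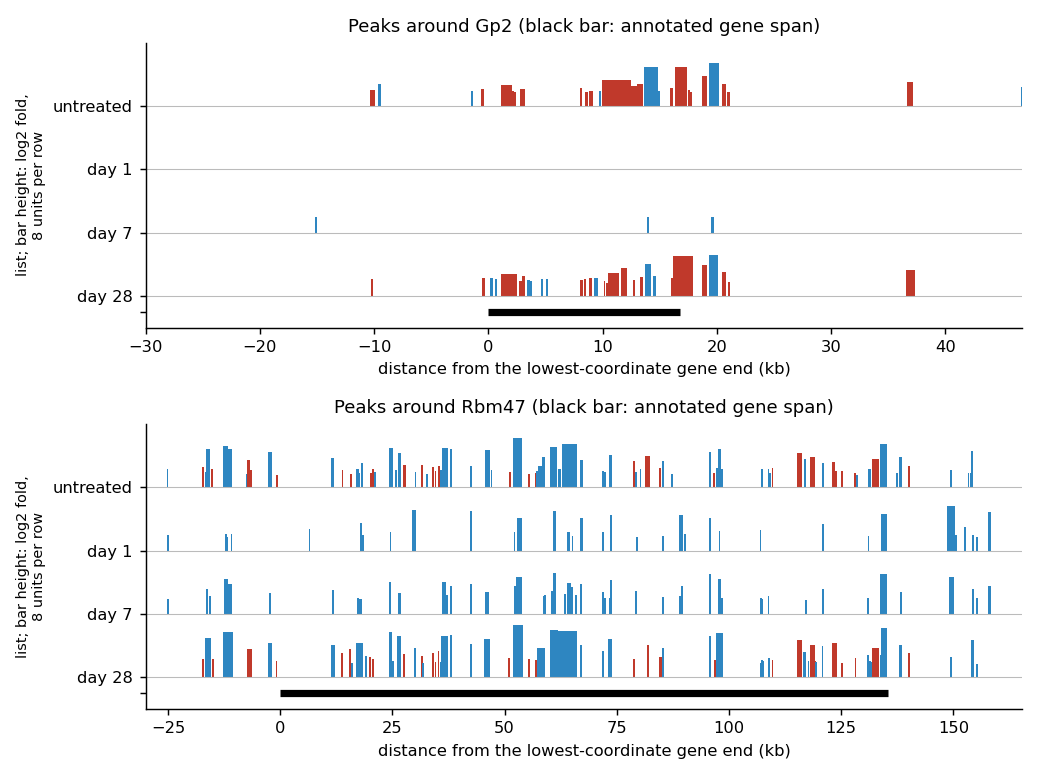
Peaks of the 4 lists around Gp2, the gene with the highest share of transiently absent regions among those with at least 8 shared regions, and Rbm47, the gene with the most, by distance (kb) from the gene end of lowest coordinate; bar height is log2 fold enrichment and transiently absent regions are red. Within 30 kb of Gp2 the lists held 27, 0, 3 and 30 peaks, and around Rbm47 87, 34, 52 and 73.

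The genes with the highest share had varied functions. Among the 2724 genes with at least 8 shared regions, the share was highest at Gp2, and second at Reg1, an acinar-derived regenerating protein gene, with 7 of 8. The Reg1 peaks numbered 9, 0, 1 and 9, and its strongest region, at chromosome 6, 78418635 to 78419165, had folds of 24.7 and 29.5. After Amy1 came Cuzd1, which encodes a zymogen granule membrane protein, with 8 of 10 and a strongest region of 16.1 and 19.02, and Glp1r, the receptor of glucagon-like peptide 1, with 7 of 9. Lrrn1 and Ddhd2 had 6 of 8 each, Pnliprp1 11 of 15, and Ccser1 and Cpb1 7 of 10 each. In all 89 of the 2724 genes reached 50%, and 675 had no transiently absent region. The promoter windows of Reg2, Reg3b and Reg3g, named here after their values were seen, were also overlapped, with folds of 7.08 and 11.9, 9.39 and 10.2, and 6.10 and 9.93.

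By number of regions, long genes with many peaks led. Rbm47, which encodes an RNA-binding protein, had 28 of 60 shared regions in the set. Among them was a region over a start site that lies within the annotated gene span (15.2 and 16.5). Near the upstream end of that span every list held a peak. The folds there were 44.0 in the untreated list, 24.6 at day 1, 33.0 at day 7 and 72.1 at day 28. Arhgap26 had 28 of 99 and Gse1 28 of 98. Then followed Rap1gap2 (24 of 60), Arid1b, a chromatin remodelling subunit gene (22 of 84), Sel1l, whose product serves endoplasmic reticulum-associated degradation (21 of 34), Dmbt1, a secreted scavenger receptor gene (21 of 31), and Shroom3 (21 of 58). Prdm16 had 20 of 58, Adk, the adenosine kinase gene, 18 of 38, Maml3, a Notch coactivator gene, 18 of 64, Foxn3 17 of 54 and Bmpr1b, a bone morphogenetic protein receptor gene, 16 of 25. Xylt1 had 16 of 47, Prkce 16 of 68, Mtss1 15 of 39 and Tmem131l 15 of 30. The share at Dmbt1, Sel1l and Bmpr1b was thus well above that at Arhgap26 or Gse1, where constant regions prevailed (60 and 58). Several of these counts depended on the setting: Rap1gap2 had 13 with a −log10 q of at least 5 and 15 when peaks within 200 bp were merged, where Gse1 had 14 and Dmbt1 13.

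**Figure D5:**
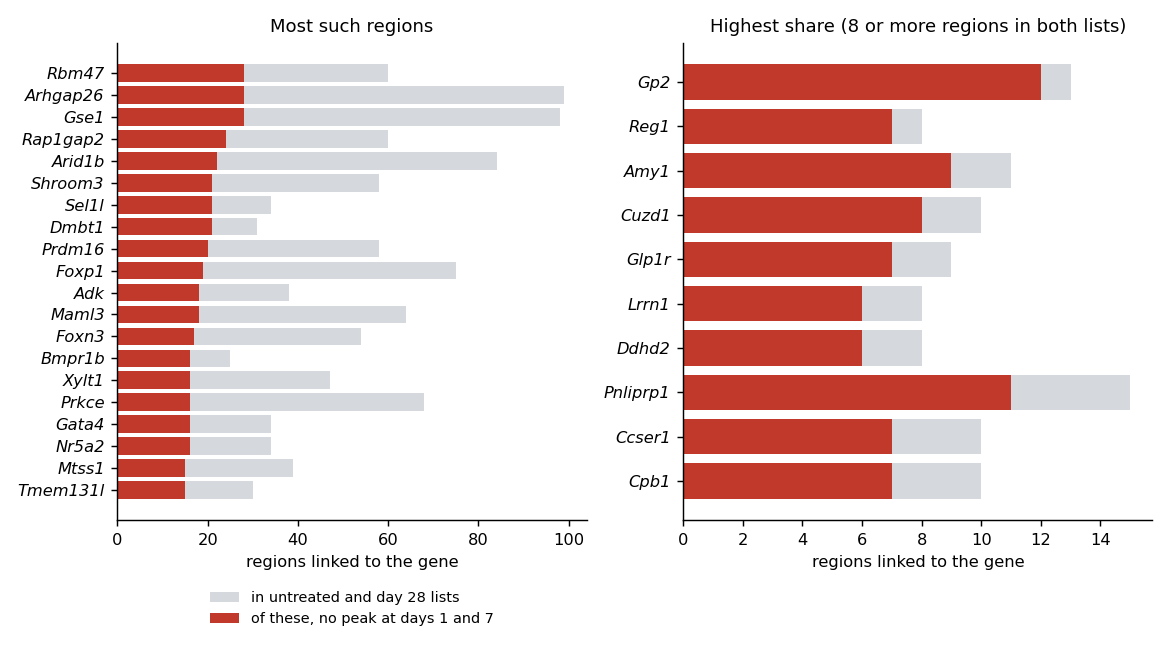
Red bars give transiently absent regions and grey bars all regions shared by the untreated and day 28 lists, for the 20 genes with the most (left) and the 10 with the highest share (right). Gp2 (12 of 13) and Reg1 (7 of 8) are almost wholly red, whereas Arhgap26 (28 of 99) is mostly grey.

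The acinar transcription factor genes held their regions chiefly outside gene ends. Nr5a2 and Gata4 each had 16 of 34, with medians of 4.20 and 5.11 at Nr5a2 and 4.12 and 5.11 at Gata4. At Nr5a2, 13 of the 16 lay inside the gene. With a fold of at least 5 in both lists Nr5a2 had 5 and Gata4 3. Peaks numbered 47, 16, 28 and 53 at Nr5a2 and 44, 13, 28 and 55 at Gata4. Foxp1 had 19 of 75, Mecom 15 of 38 and Ptf1a 6 of 13. The 6 Ptf1a regions all lay outside the gene, from 1510 to 16383 bp away, and the strongest, at chromosome 2, 19443861 to 19444400, had folds of 6.43 and 10.8, with a day 7 peak 66 bp and a day 1 peak 476 bp from it. Gata6 and Rbpjl had 1 of 9 each, Xbp1 1 of 12, Onecut1 1 of 14 and Rbpj 2 of 13, and Bhlha15 and Hnf4g had none. Foxp1, Gata4, Nr5a2 and Mecom together thus held most of the 93 regions of this list. Only 3 of the 18 genes, Foxa2, Nr0b2 and Tcf3, had a region of the set within 1 kb of a gene end.

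Genes that serve the secretory load of acinar cells followed. Besides Sel1l, the kinase gene Eif2ak3, which encodes PERK, had 12 of 29, Ern1, which encodes IRE1, 6 of 19 with a strongest region of 21.1 and 24.1, and Edem1 6 of 12. Creb3l1 had 4 of 20. Hspa5, which encodes the chaperone BiP, had 1 of 5, and the folding genes Hsp90b1, Calr and P4hb had none. Of the export genes Mcfd2 had 7 of 17 and Kdelr2 3 of 7, and Tram1, Sec61a1 and Sec31a had 2 each. In amino acid metabolism the amino acid transporter gene Slc7a8 had 7 of 19, Gatm, which catalyses a step of creatine synthesis, 5 of 11, the asparagine synthetase gene Asns 4 of 8 and Cbs 3 of 7.

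The receptor through which caerulein acts was among the genes with such regions. Cckar, the cholecystokinin A receptor gene, had 5 of 12, the strongest by its weaker fold at chromosome 5, 53697833 to 53698206, with folds of 7.08 and 7.10. Its peaks numbered 17, 7, 10 and 15. The calcium channel genes Itpr1 and Itpr2, whose products release calcium in the secretory response, had 5 of 39 and 5 of 27. Rab27b, a granule-associated small GTPase gene, had 4 of 10 and the acinar aquaporin gene Aqp12 4 of 7, of which 3 lay within 1 kb of a gene end.

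In the lists of other cell types and pathways the regions were spread as follows. Among the 10 ductal genes with such a region Epcam had 4 of 15, Krt19 3 of 12, Pdx1 3 of 10 and Krt18 and Slc4a4 2 each. Tgfa had 8 of 23 and Egfr 6 of 32, together most of the 25 of the EGFR and MAPK list, in which Dusp6 and Spred2 had 2 each and Egf 1. Of the 9 inflammatory genes with a region Nfkb1 had 4 of 18, and Socs3, Stat3, Saa3 and Nfkbia were among those with 1. Of 8 immediate-early and AP-1 genes Fos had 3 of 21, Myc and Ier3 2 each, and Jun and Jund were among those with 1. Tuft cell regions lay at Sh2d6 (4 of 17, medians 8.49 and 8.80), Gfi1b (4 of 8), Sucnr1 (2 of 6) and Pou2f3 (1 of 8). Endothelial regions lay at 6 genes, led by Erg (4 of 12), with 1 each at Pecam1, Sox17, Emcn and Tek. Leukocyte regions lay at Cx3cr1 (2 of 5) and Itgam (2 of 3). Cell cycle regions lay at Ccnd1, Aurkb and Cdk6, and ubiquitous ones at Eef1a1, Actb, Polr2a and Pgk1, with 1 at each.

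Transiently absent regions had a higher share of their own kind among their neighbours than other shared regions had. Of the 16201 neighbours that they had within 10 kb among shared regions, 26.9% were also transiently absent, against 13.1% of the 90635 neighbours of the remaining regions. In 1927 places at least 2 consecutive shared regions, up to 50 kb apart, were all of this kind, and these runs held 4579 regions (39.4%). Runs of other patterns were not counted for comparison. Closely spaced peaks count here as separate neighbours, and merging peaks within 200 bp left 8838 regions in the set. The longest run, 12 regions between 131048604 and 131110543 on chromosome 7, lay at Dmbt1, where a second of 7 followed. The next were 10 regions at Gp2, 9 at Pnliprp1 (chromosome 19, 58729670 to 58742397), 8 at Reg1 and Reg3g, and 7 each at Vtcn1, Plppr1 and Lifr, loci that were named after the runs were seen. By chromosome the share of shared regions ranged from 12.1% on chromosome 11 to 16.6% on chromosome 3.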

How the data were processed

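The measurements were ATAC-seq peak lists of 4 epithelial libraries, 1 each from untreated mice and from days 1, 7 and 28 after caerulein, grouped by sample title. Per the submitters' processing notes, Bowtie2 2.2.6, MACS2 2.1.0.20150731, SAMtools, cutadapt and deepTools were used on GRCm38 (mm10); their options, read filters and any cut site shift are not stated in the labels. The authors deposited, for each peak, a fold enrichment at the summit (a ratio to the library's background), a −log10 p and −log10 q, a score that is 10 times the −log10 q, and the summit offset. Total read numbers are unknown. The fold steps gave each library's background pileup, under which 100% of pileups were whole within 0.05.

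Peaks overlapping by at least 1 bp were merged in Python 3.11.15 (pandas 2.3.3), and bedtools 2.31.1 gave the same 223972 regions. The merge and the gene links were tested on simulated data. Gene spans, without exons, were RefSeq's on GRCm38.p6, which is the files' build. Of 371 genes in 17 lists 368 matched, and Ctrc, Ero1l and Ero1lb did not. The regions and lists were chosen with earlier results of these data known. Shares carry exact (Clopper-Pearson) intervals from scipy 1.17.1. Named were the 10 strongest regions by the weaker fold with a gene within 50 kb, the 10 strongest within 1 kb of a gene end, the 20 genes with the most regions, up to 5 genes per list, and the 10 genes with the highest share among those with at least 8 shared regions; further genes are given as list members or where stated, and some genes that the rule names are not reported here. Sequences are the 4 strongest promoters at hand of genes named from the lists or for a region near a gene end; Rbm47, named for its number of regions, was not eligible. With 1 library per group no test was run. Settings that were changed were the threshold, a common fold floor, the merging gap, the margin for absence, the overlap, the strength, and the link and gene end distances.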

Additional observations from a re-analysis of the deposited data

How the results depend on the processing

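The set of 11629 transiently absent regions held 8332 when a peak had to reach a −log10 q of 5, 11610 with a common fold floor, 8838 when peaks within 200 bp were merged, 8430 when no day 1 or day 7 peak was allowed within 500 bp, and 13249 when untreated peaks with an overlap of at least 50% were counted. Restricting it to a fold of at least 5 in both lists left 3707, by construction. The share of shared regions was 11.2% with the stricter q, 11.8% with wider merging, 10.0% with the margin, 13.5% with the 50% overlap and 6.79% with the fold of 5. Digestive enzyme and granule protein genes had the highest share of the 17 lists under each of the 8 settings that bear on it. That share was 44.7% (67 regions) with wider merging, 43.6% with the margin and 40% (60 regions) with the fold of 5. At acinar transcription factor genes it was 24.8% with the stricter q, 23.1% with the margin and 14.4% (27 regions) with the fold of 5. Regions near a gene end numbered 361 (4.08%) with wider merging, 344 (4.08%) with the margin, 161 (4.34%) with the fold of 5 and 1397 (12.0%) when 2 kb counted as near, and they made up 6.14% with the 50% overlap. Islet markers, with 0 regions in the main setting, had 1 with the common fold floor and 2 with the 50% overlap. The cause of these changes was not tested. Counts at the 20 genes with the most regions moved by over 1.5 times in 33 cases and by less in 127. Links within 10 or 100 kb moved neither main list's count by over 1.5 times. No paired analysis was possible because each group was 1 library.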
